A study of Mus musculus with 2 samples.

Results

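The genes described here are 10 of glycolysis, the pathway that splits glucose into pyruvate and lactate: Slc2a1, Hk1, Hk2, Pfkl, Pfkfb3, Aldoa, Gapdh, Pgk1, Pkm and Ldha. They were chosen by name, 10 of the 21951 genes and transgene sequences counted, and all 10 were detected in each of the 6 groups of cells below. The data came from 1 pooled 10x Genomics library of cells sorted as endothelial cells (ECs) from the hearts and livers of C57BL/6 mouse pups. A library of this kind counts unique molecular identifiers (UMIs), each of which marks 1 captured RNA molecule. The labels list it as 2 samples, 1 holding the gene expression reads and the other the reads of the hashtags, which are antibody-bound barcodes that mark the group a cell came from.

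All pups received 40 mg/kg 4-hydroxytamoxifen at postnatal day 3 and were dissected 3 days later, at P6 to P7. The drug activates CreERT2, a recombinase that in these mice was driven by the Cdh5 promoter and so acted in ECs. The 6 hashtags marked control, iSuRe-Cre and iSuRe-HadCre cells (iSureCre and iSureHadCre in the labels), each from heart and from liver. iSuRe-Cre is a transgene that keeps expressing Cre together with the membrane reporter MbTomato after induction. iSuRe-HadCre is an allele in which Cre is expressed for a short time and then deleted by FlpO, while MbTomato stays on. The genotype field of the labels names Cdh5-CreERT2 with iSuRe-HadCre for the whole library. A floxed Notch1 in the iSuRe-Cre and iSuRe-HadCre pups was taken from the study's scheme, while the genotype of the control pups and the number of pups pooled under each hashtag were not given in the sources used here. Per the labels, ECs were sorted as CD31+ MbTomato+, while the series' design text speaks of sorting with or without Tomato. Every group was 1 pooled sample with no replicate, no test between groups was possible, and each level and ratio below carries a 95% interval that covers counting error only.

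Glycolysis begins when a glucose transporter such as GLUT1 (Slc2a1) brings glucose in and a hexokinase traps it as glucose 6-phosphate. Phosphofructokinase then makes the committed step, and the enzyme PFKFB3 makes the metabolite that activates it. Lower glycolysis runs through aldolase (Aldoa), glyceraldehyde 3-phosphate dehydrogenase (Gapdh), phosphoglycerate kinase (Pgk1) and pyruvate kinase (Pkm), and lactate dehydrogenase (Ldha) turns the pyruvate into lactate. ECs rely heavily on this pathway, PFKFB3 supports vessel sprouting, and Notch signalling and the flow-induced factor KLF2 are known to lower PFKFB3. Hypoxia-inducible factors (HIFs) raise many genes of the pathway by binding DNA that holds ACGTG.

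All 10 genes are protein-coding, and their positions are given on the GRCm38 build, with minus-strand genes marked as such. Slc2a1 (ENSMUSG00000028645) spans chr4:119108711-119137983. Hk1 (ENSMUSG00000037012) spans chr10:62268855-62379908 on the minus strand, and Hk2 (ENSMUSG00000000628) spans chr6:82725025-82774454 on the minus strand. Pfkl (ENSMUSG00000020277) lies at chr10:77986947-78010083 and Pfkfb3 (ENSMUSG00000026773) at chr2:11471433-11554077, both on the minus strand. Aldoa (ENSMUSG00000030695) lies at chr7:126795234-126800751 and Gapdh (ENSMUSG00000057666) at chr6:125161715-125166467, again both on the minus strand. On the plus strand, Pgk1 (ENSMUSG00000062070) spans chrX:106187100-106203699, Pkm (ENSMUSG00000032294) chr9:59656368-59679375 and Ldha (ENSMUSG00000063229) chr7:46841475-46855627. Gapdh, Pgk1, Ldha, Pkm and Aldoa have near-identical pseudogene copies, so their counts are uncertain to the extent that reads matching several genes were dropped. The counts do not separate the M1 and M2 forms of Pkm.

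The letters ACGTG, searched on both strands (the reverse strand reads CACGT, and both overlap in CACGTG), occurred in the RefSeq promoter window of 9 of the 10 genes, the exception being Pfkl. A window held 250 bases before and 50 after a start site on GRCm38.p6. Counted by window, 11 of 16 windows of these genes held the motif (68.8%), against 9 of 31 windows of other glycolysis genes (29.0%) and 6447 of all 32851 windows (19.6%). A match is a description of the letters only. The 3 sequences below are the 250 bases before a start site of Ldha and that of Pgk1, which differed between the iSuRe groups of the heart in the same direction, and of Hk2, which differed in the other. They lie at chr7:46845554-46845803 (plus strand), chrX:106186850-106187099 (plus strand) and chr6:82774455-82774704 (minus strand), read 5′ to 3′ along the gene, with ACGTG or CACGT in capitals.
Ldha: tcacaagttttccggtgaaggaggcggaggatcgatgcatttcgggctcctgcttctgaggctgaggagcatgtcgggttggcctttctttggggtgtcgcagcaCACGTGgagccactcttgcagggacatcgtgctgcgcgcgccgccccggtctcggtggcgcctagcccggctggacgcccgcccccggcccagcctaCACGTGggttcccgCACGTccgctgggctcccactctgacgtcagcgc
Pgk1: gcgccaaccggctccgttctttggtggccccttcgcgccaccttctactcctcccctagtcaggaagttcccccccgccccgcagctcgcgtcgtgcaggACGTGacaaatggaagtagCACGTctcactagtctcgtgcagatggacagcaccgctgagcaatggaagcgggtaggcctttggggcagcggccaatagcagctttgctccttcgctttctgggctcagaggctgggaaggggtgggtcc
Hk2: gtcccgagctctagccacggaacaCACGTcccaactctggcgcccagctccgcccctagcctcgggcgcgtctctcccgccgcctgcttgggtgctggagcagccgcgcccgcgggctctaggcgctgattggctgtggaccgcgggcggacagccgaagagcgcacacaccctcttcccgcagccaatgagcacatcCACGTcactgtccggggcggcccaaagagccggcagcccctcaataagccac
Ldha held the motif at 3 places in this stretch, and Pgk1 and Hk2 at 2 each. A second Ldha window, at chr7:46846832-46847131, held it at 0 places.

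After the quality limits, cells with exactly 1 hashtag and at least 1 UMI of Cdh5, the gene of VE-cadherin, numbered 255 in control heart, 437 in iSuRe-Cre heart, 319 in iSuRe-HadCre heart, 61 in control liver, 903 in iSuRe-Cre liver and 84 in iSuRe-HadCre liver. The groups summed to 838074 to 10253165 UMIs, with a median of 7392 to 16398 UMIs a cell, highest in iSuRe-Cre heart. Notch1 stood at 137 and 143 CPM (counts per 1000000, the UMIs of a gene in each 1000000 UMIs of a group) in control heart and liver, and at 12.9 to 33.5 in the other 4 groups. WPRE, a sequence counted with the transgenes, stood at 338 to 1021 CPM in the control and iSuRe-HadCre groups and at 63.0 and 99.1 in the iSuRe-Cre groups, below its 160 in free RNA. Genes of the capillary marker list summed to 12157 to 22088 CPM in the heart groups and 3825 to 4793 in the liver groups, where the sinusoidal list ran from 123 in control liver to 2496 in iSuRe-Cre liver. The neutrophil-lineage list summed to 4090 to 10171 CPM in the liver groups and 36.8 to 174 in the heart groups. Only 2391 of 14348 barcodes that passed the quality limits carried exactly 1 hashtag, and 11771 (82.0%) carried none. In sums over cells such as these, fewer cells of a type and less RNA per cell cannot be told apart.

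The 10 genes together took 2667 CPM in iSuRe-Cre heart, the most of any group, and 1763 in iSuRe-HadCre heart, the least. Control heart stood between them at 2094, control liver was at 1796, iSuRe-Cre liver at 2229 and iSuRe-HadCre liver at 2072. Cell by cell, the median share of UMIs from these genes was 0.234% in iSuRe-Cre heart, 0.177% in control heart and 0.128% in iSuRe-HadCre heart. The liver medians were 0.190% for iSuRe-Cre, 0.156% for iSuRe-HadCre and 0.141% for control. The order of the summed levels was thus the order of the medians within each organ.

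Slc2a1, the main glucose transporter of ECs, was sparse in every group. Its level was 11.2 CPM in control heart, 20.0 in iSuRe-Cre heart, 19.2 in iSuRe-HadCre heart, 11.9 in control liver, 16.9 in iSuRe-Cre liver and 21.9 in iSuRe-HadCre liver, from 10 to 173 UMIs. All 6 levels lay below the 36.8 CPM (95% interval 25.5 to 51.5) of free RNA, measured in 24194 barcodes of 10 to 100 UMIs. Both control groups were the lowest.

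Hk1, the hexokinase bound to mitochondria in most tissues, was the steadiest of the 10 genes, and its levels could not be told apart by their intervals. It stood at 47.4, 41.9 and 48.4 CPM in control, iSuRe-Cre and iSuRe-HadCre heart, and at 47.7, 44.3 and 48.5 in the same groups of liver. It was also the only one of the 10 above its free-RNA level (26.0) in all 6 groups.

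Hk2, the inducible hexokinase, was lowest in control heart at 8.56 CPM. It was at 11.8 in iSuRe-Cre heart, 24.7 in iSuRe-HadCre heart, 16.7 in control liver, 20.8 in iSuRe-Cre liver and 30.0 in iSuRe-HadCre liver, all below the 33.6 of free RNA. The highest group of each organ was iSuRe-HadCre, but few cells carried the transcript. The 82 UMIs of iSuRe-HadCre heart came from 26 of 319 cells, with 14 in 1 cell and 46.3% in 5 cells. In control heart 11 cells held all 26 UMIs, and 5 of these cells held 76.9%, so the counting intervals, which assume independent molecules, understate the error for this gene.

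Pfkl, the liver-type subunit of phosphofructokinase, ran from 38.5 CPM in iSuRe-HadCre heart to 62.3 in iSuRe-Cre liver. Control heart was at 45.4, iSuRe-Cre heart at 50.5, control liver at 45.3 and iSuRe-HadCre liver at 47.3. Pfkfb3 was as sparse as Slc2a1. It measured 13.5 CPM in control heart, 17.8 in iSuRe-Cre heart, 19.5 in iSuRe-HadCre heart, 11.9 in control liver, 23.3 in iSuRe-Cre liver and 21.9 in iSuRe-HadCre liver. As for Slc2a1, the control group was the lowest of its organ, and the 10 UMIs of control liver came from 5 cells.

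The genes of lower glycolysis and lactate production were abundant and shared 1 order in the heart, with iSuRe-Cre highest, control between and iSuRe-HadCre lowest. Aldoa stood at 307 CPM in control heart, 347 for iSuRe-Cre and 235 for iSuRe-HadCre, and at 247, 259 and 217 in the same groups of liver. Gapdh stood at 864, 1088 and 724 in the heart groups and at 753, 928 and 910 in the liver groups. In the heart neither gene's intervals overlapped between groups. In the liver the Aldoa intervals of the groups overlapped, as did those of iSuRe-Cre and iSuRe-HadCre for Gapdh. The share of all features without such overlap was not counted.
Pgk1 levels were 142 CPM in control heart, 209 in iSuRe-Cre heart, 117 in iSuRe-HadCre heart, 137 in control liver, 168 in iSuRe-Cre liver and 191 in iSuRe-HadCre liver. Pkm levels in the same order were 258, 352, 190, 210, 314 and 242 CPM, and Ldha levels were 397, 528, 347, 315, 392 and 342. In the liver Aldoa, Gapdh, Pkm and Ldha were again highest in iSuRe-Cre, whereas Pgk1 was highest in iSuRe-HadCre. Of these 5 genes, Pgk1 lay below its free-RNA level (226) in all 6 groups, and Aldoa, Gapdh and Ldha in all but iSuRe-Cre heart (333, 1033 and 446 in free RNA). Pkm lay below its 305 in 4 groups and above it in both iSuRe-Cre groups.

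**Figure D1:**
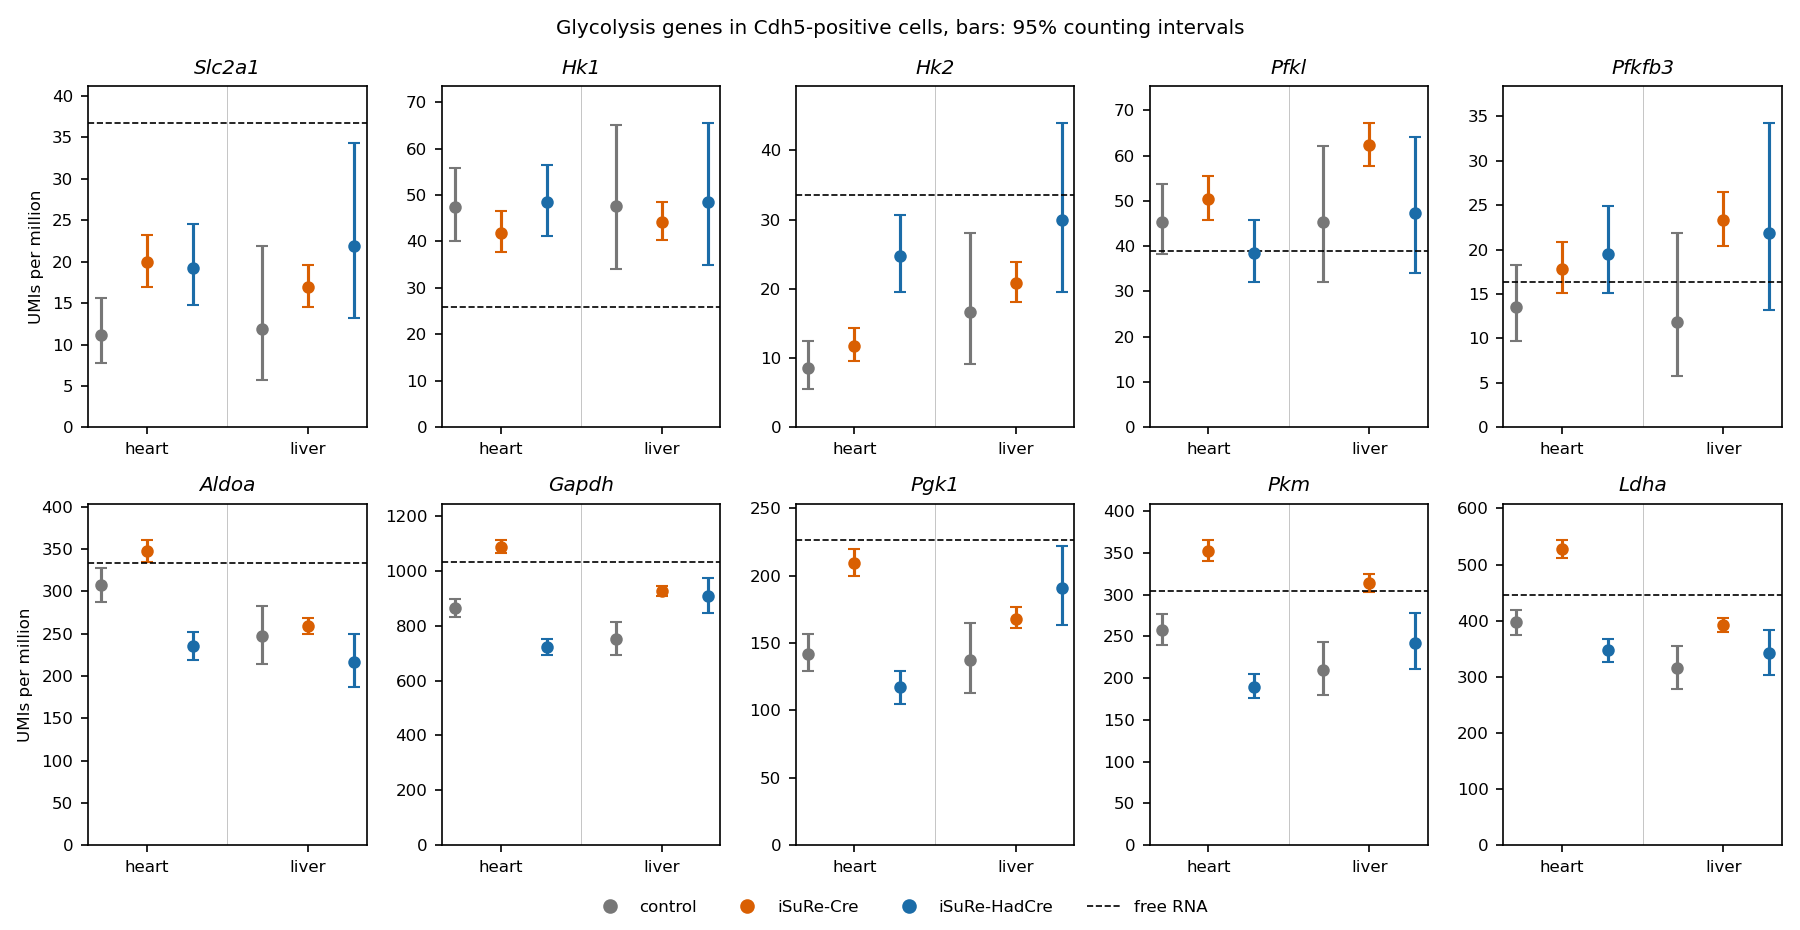
Level of each of the 10 genes in CPM (vertical axis, from 0) in control, iSuRe-Cre and iSuRe-HadCre cells of heart and liver, with 95% counting intervals as bars and the free-RNA level as a dashed line. Aldoa, Gapdh, Pgk1, Pkm and Ldha peaked in iSuRe-Cre heart, for example at 1088 for Gapdh, while Hk1 stayed between 41.9 and 48.5.

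Between the heart cells of the iSuRe-Cre and iSuRe-HadCre groups, Pkm, Pgk1, Ldha and Gapdh were lower in iSuRe-HadCre. The groups carry different alleles and each is 1 pooled sample. How long Cre was expressed thus cannot be told apart from other differences between them. Of the 10 genes, all with at least 100 UMIs in both groups together, 4 were lower in iSuRe-HadCre heart by at least 1.5-fold and 1 was higher. Among all 9433 features with that many UMIs, 4.60% were lower and 19.6% higher by this measure. Pkm was at 0.539 times its level in iSuRe-Cre heart (95% interval 0.494 to 0.588), Pgk1 at 0.557 (0.498 to 0.622), Ldha at 0.658 (0.616 to 0.702) and Gapdh at 0.665 (0.636 to 0.696). Aldoa, at 0.677 (0.625 to 0.733), was just inside 1.5-fold, whose lower bound is 0.667, and Pfkl was at 0.762 (0.620 to 0.930).
The median ratio of the 10 genes was 0.719, against 1.15 for all features tested, and summed over the 10 it was 0.661 (0.642 to 0.680). Scaled by the median of ratios instead of by total UMIs, Pkm came to 0.470, Pgk1 to 0.485, Ldha to 0.573 and Gapdh to 0.579, and Aldoa and Pfkl passed 1.5-fold as well. Hk1 (1.15, 0.952 to 1.40) and Slc2a1 (0.964, 0.711 to 1.29) had intervals that held 1. So did Pfkfb3 at 1.10 (0.807 to 1.48), which turned to 0.956 under that scaling.

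Hk2 went the other way, at 2.08 times its iSuRe-Cre heart level (1.54 to 2.82). With every cell weighted equally this ratio was 1.13, in cells under 20000 UMIs 1.26 and in capillary-gated cells 1.45 (0.943 to 2.21), so its size moved by over 1.5 times with the weight given to deep cells. The 4 lower genes kept their direction in each of these. Within the capillary gate, 256 iSuRe-HadCre and 356 iSuRe-Cre cells chosen by capillary markers, Pkm was at 0.504, Pgk1 at 0.549, Gapdh at 0.590 and Ldha at 0.650. The groups differed in depth, with a median of 16398 UMIs a cell for iSuRe-Cre and 7392 for iSuRe-HadCre, and in marker lists of other cells. In the same order the hepatocyte list stood at 495 and 65.6 CPM, the lymphatic list at 186 and 58.0, the smooth muscle list at 120 and 36.4, the keratinocyte list at 48.6 and 125, and the chondrocyte list at 19.0 and 154. The part of these in the ratios was not tested beyond the settings given.

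**Figure D2:**
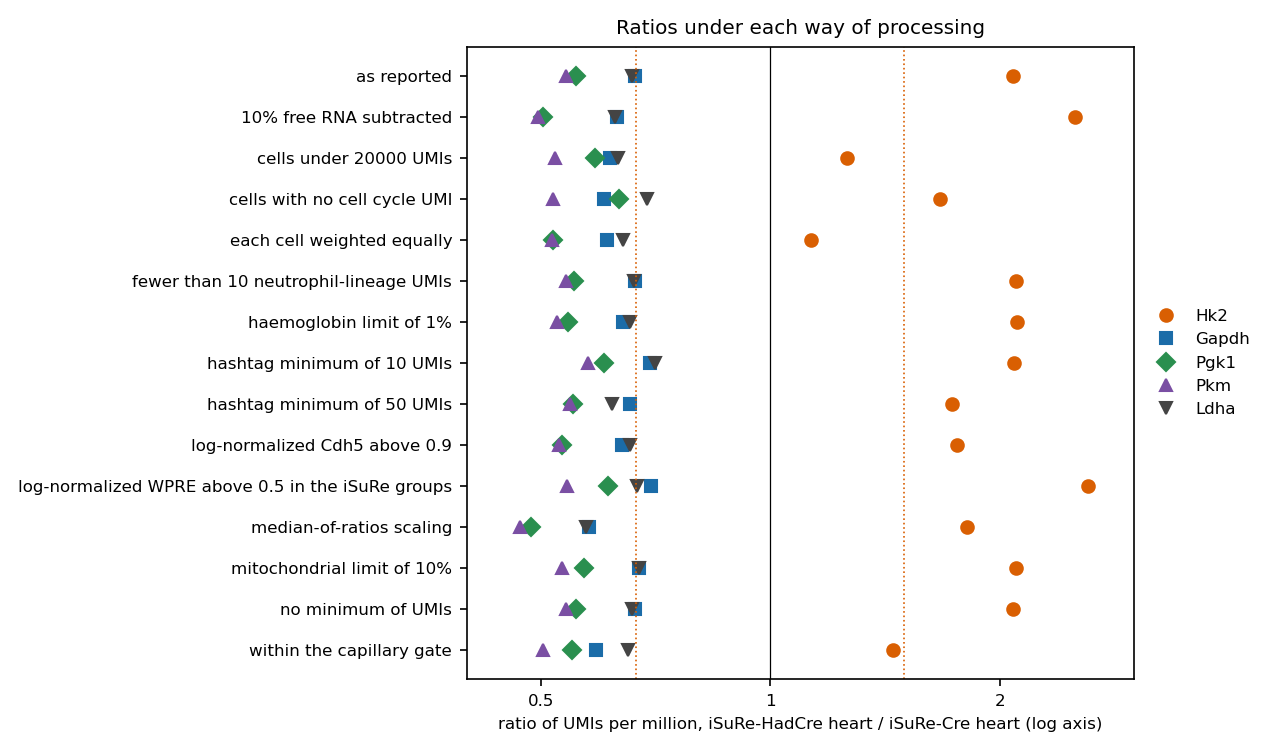
Ratio of CPM, iSuRe-HadCre over iSuRe-Cre heart (horizontal log axis), for members of the pathway under each way of processing (vertical axis), with dotted lines at 1.5-fold in both directions. Pkm stayed between 0.470 and 0.577 and Pgk1 between 0.485 and 0.633, while Hk2 ran from 1.13 to 2.61.

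Against control heart, iSuRe-Cre heart had 1 of the 10 genes at least 1.5-fold higher and none lower, beside 7.59% higher and 8.25% lower of 9205 features. That gene was Slc2a1, at 1.78 (1.23 to 2.66), from 34 UMIs in control heart. Pgk1 was at 1.47 (1.32 to 1.64), Pkm at 1.37 (1.26 to 1.48), Ldha at 1.33 (1.25 to 1.42), Gapdh at 1.26 (1.21 to 1.32) and Aldoa at 1.13 (1.05 to 1.22), all intervals above 1 and all short of 1.5-fold. Among all 9205 features, 1634 had intervals above 1 and 2280 below. The intervals of Hk1 (0.885), Hk2 (1.38), Pfkl (1.11) and Pfkfb3 (1.32) held 1. The median over the 10 genes was 1.32 and over all features 0.961. The hepatocyte list was at 495 CPM in iSuRe-Cre heart and 95.4 in control heart, and its part in these ratios was not tested.

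The same control cells served for iSuRe-HadCre heart, so the comparisons are not independent. Here 9 of the 10 genes had enough UMIs, and 1 of them was at least 1.5-fold higher and none lower, beside 9.78% higher and 1.55% lower of 7893 features. Hk2 was that gene, at 2.88 (1.83 to 4.67), resting on 26 UMIs in control heart and ranging from 1.65 to 13.5 over the alternatives. Pkm was at 0.737 (0.662 to 0.819), Aldoa at 0.767 (0.696 to 0.844), Pgk1 at 0.819 (0.712 to 0.941), Gapdh at 0.838 (0.792 to 0.886) and Ldha at 0.874 (0.806 to 0.949). These 5 intervals lay below 1, and each ratio stayed below 1 in all 14 other ways of processing. Among all 7893 features, 713 had intervals below 1 and 2099 above. The median over the 9 genes was 0.848, and over all features 1.08.

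In the liver the control group was thin, at 61 cells. Between iSuRe-Cre and control liver, 1 of 10 genes was at least 1.5-fold higher and none lower, beside 12.1% of 9652 features in each direction. That count was 0 at both other hashtag minimums, 4 with log-normalized Cdh5 above 0.9, 5 among cells under 20000 UMIs and 7 with each cell weighted equally, none of them lower. Pfkfb3 was at 1.95 (1.04 to 4.13) but rested on 10 UMIs in control liver, and it was 0.950 among cells under 20000 UMIs and 6.21 among cells with no cell-cycle UMI. Pkm was at 1.50 after rounding and just short of the threshold (1.28 to 1.75), Ldha at 1.25 (1.10 to 1.42), Gapdh at 1.23 (1.14 to 1.34) and Pgk1 at 1.23 (1.02 to 1.50). Summed over the 10 genes the ratio was 1.24 (1.18 to 1.31), beside a median of 0.959 over all features. In iSuRe-Cre and control liver the sinusoidal list stood at 2496 and 123 CPM, the lymphatic list at 435 and 48.9. In the same order the hepatocyte list stood at 375 and 83.5 and the macrophage list at 194 and 11.9. The large-vessel list, at 376 and 730, and the mesenchymal list, at 629 and 956, went the other way. The part of these lists in the ratios was not tested. The neutrophil-lineage list stood at 5605 CPM in iSuRe-Cre liver and 10171 in control liver. Leaving out cells with 10 or more UMIs of that list, an alternative chosen after seeing the data, raised the count past 1.5-fold from 1 to 4.

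For iSuRe-HadCre against control liver only 5 genes had enough UMIs, and 0 of them passed 1.5-fold, beside 4.83% higher and 4.13% lower of 3581 features. Pgk1 was at 1.39 (1.09 to 1.78) and Gapdh at 1.21 (1.09 to 1.34), with Pkm at 1.15, Ldha at 1.09 and Aldoa at 0.879 holding 1 in their intervals. Between iSuRe-HadCre and iSuRe-Cre liver, 0 of 10 passed, beside 10.5% higher and 10.6% lower of 9645 features. Pkm was at 0.772 (0.668 to 0.888), Aldoa at 0.837 (0.718 to 0.971) and Ldha at 0.871 (0.771 to 0.980) there, while Gapdh was at 0.981 (0.911 to 1.06). Pkm, Aldoa and Ldha thus had intervals below 1, and Pgk1, at 1.13 (0.958 to 1.33), did not. Among all 9645 features, 1039 had intervals below 1 and 1460 above. The capillary gate held only 30 iSuRe-HadCre and 170 iSuRe-Cre liver cells, and its ratios were lower. Aldoa was at 0.497 there, Ldha at 0.511, Gapdh at 0.555, Pkm at 0.573 and Pgk1 at 0.668, all with intervals below 1. The share of all features with such intervals in that gate was not counted. The median over all features in that gate was 1.04, and Pfkfb3 was above 1, at 2.13 (0.976 to 4.27). In iSuRe-HadCre and iSuRe-Cre liver the sinusoidal list stood at 527 and 2496 CPM, the lymphatic list at 67.0 and 435. The chondrocyte list, at 383 and 44.7, went the other way. The part of these lists in the ratios was not tested, nor was the difference between the organs.

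Control liver against control heart set the organs side by side. None of 7 genes with enough UMIs passed 1.5-fold, beside 11.7% higher and 10.9% lower of 6148 features. Ldha was at 0.794, Aldoa at 0.805, Pkm at 0.814 and Gapdh at 0.871, and the 10 genes summed to 0.857 (0.810 to 0.907), beside a median of 1.04 over all features.

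**Figure D3:**
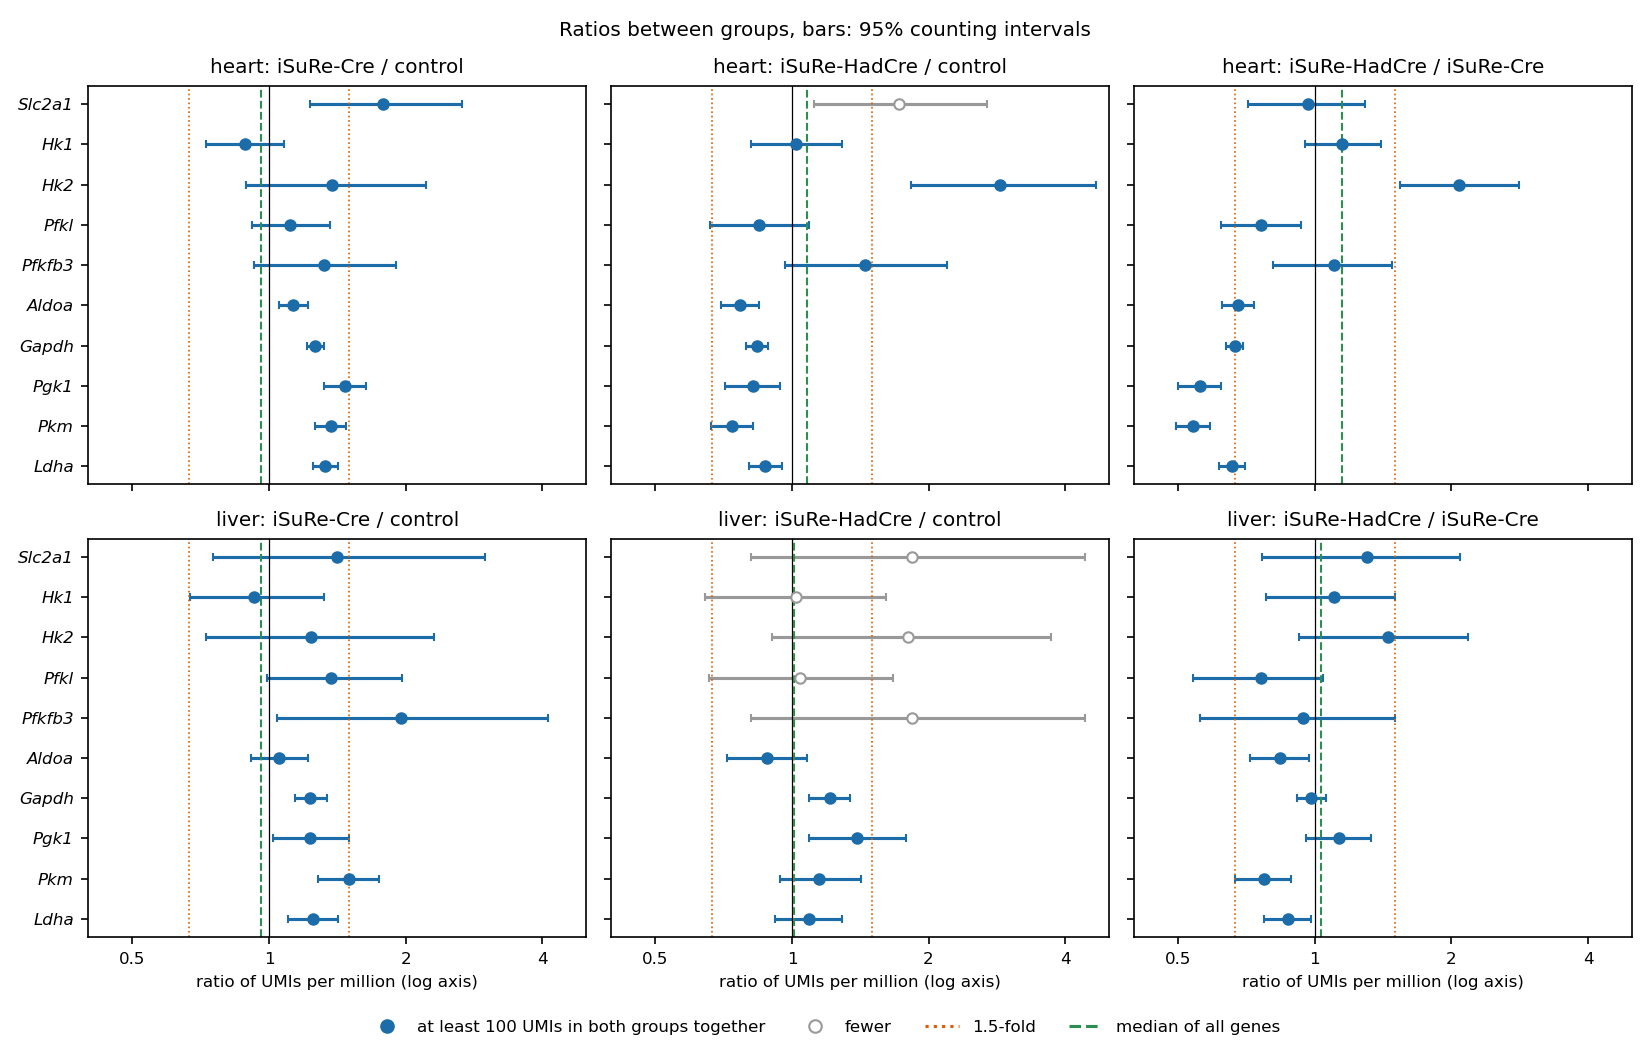
Ratio of CPM between groups (horizontal log axis) for each of the 10 genes, upper panels heart and lower panels liver, with 95% counting intervals as bars and open points where both groups held fewer than 100 UMIs together. Pkm and Pgk1 lie left of the dotted 1.5-fold line for iSuRe-HadCre over iSuRe-Cre heart, at 0.539 and 0.557, and no gene does in the liver panels.

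Gpi1 and Ldhb were the other glycolysis genes that stood apart between the iSuRe groups of the heart. Of 23 other glycolysis genes, 7 had enough UMIs in the iSuRe-HadCre against iSuRe-Cre heart comparison, and 1 was at least 1.5-fold higher and 1 lower, with a median of 0.816. Among all features 19.6% were higher and 4.60% lower. The lower gene was Gpi1, the isomerase after hexokinase, at 0.626 (0.561 to 0.698). Triose phosphate isomerase (Tpi1) was at 0.816, phosphoglycerate mutase (Pgam1) at 0.736 and enolase (Eno1) at 0.811, each with an interval below 1. Among all 9433 features, 1424 had intervals below 1 and 3750 above. The higher gene was Ldhb, which makes the lactate dehydrogenase subunit that favours pyruvate, at 2.46 (2.08 to 2.92).
Ldhb levels were 51.0 CPM in control heart, 33.7 for iSuRe-Cre and 83.0 for iSuRe-HadCre, with intervals of all 3 ratios away from 1. Against control heart it was at 0.661 (0.541 to 0.809) in iSuRe-Cre and at 1.63 (1.33 to 1.99) in iSuRe-HadCre. Slc16a3, a lactate exporter, was at 2.45 (1.41 to 4.53) in iSuRe-Cre against control heart. None of the 5 tested genes of the pentose phosphate pathway passed 1.5-fold in the heart comparisons, where 7.59% to 19.6% of all features were higher and 1.55% to 8.25% lower. Of 8 genes for pyruvate entry to mitochondria, Pdk4, a kinase that shuts pyruvate dehydrogenase, was lower at 0.486 and Pdk3 higher at 1.60 in iSuRe-HadCre against iSuRe-Cre heart.

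Some hypoxia targets outside glycolysis were lower in iSuRe-HadCre heart too. Of 9 tested, 3 were at least 1.5-fold lower in iSuRe-HadCre than in iSuRe-Cre heart and 0 higher, with a median of 0.930. Among all features 4.60% were lower and 19.6% higher. Adm, the gene of the vasodilator adrenomedullin, was at 0.290 (0.233 to 0.359), Egln3 at 0.332 (0.187 to 0.552) and Ankrd37 at 0.454 (0.386 to 0.532). Adm stood at 99.4 CPM in iSuRe-Cre heart, beside 29.3 in control heart and 28.9 in iSuRe-HadCre heart. Ankrd37 stood at 94.1, 121 and 54.7 CPM in control, iSuRe-Cre and iSuRe-HadCre heart.
In iSuRe-Cre against control heart 2 of these 9 genes were higher (Adm at 3.39, Egln3 at 2.60) and 1 lower (Ddit4 at 0.493). Among all features 7.59% were higher and 8.25% lower there. In iSuRe-HadCre against control heart, 0 of 8 were higher and 2 lower (Ankrd37 at 0.582, Ddit4 at 0.658). Among all features 9.78% were higher and 1.55% lower there. Of 8 regulators of endothelial glycolysis tested, 5 were at least 1.5-fold higher in iSuRe-HadCre heart, with iSuRe-Cre heart as the base, and 0 lower. Among all features 19.6% were higher and 4.60% lower. The 5 regulators were Klf4 at 2.79, the HIF subunit gene Epas1 at 2.31, the flow-induced Klf2 at 1.74, the VEGF receptor gene Kdr at 1.64, and the targeted Notch1. Nothing is read from Notch1, since its 12.9 and 23.5 CPM lay around the 19.5 (11.6 to 30.8) of free RNA. In iSuRe-Cre against control heart Klf2 was lower at 0.403, Klf4 at 0.443 and Epas1 at 0.537, beside Notch1, and Kdr was higher at 2.60. Klf4 stood at 367 CPM in control heart, 162 for iSuRe-Cre and 453 for iSuRe-HadCre, the reverse of the order of Pkm and Ldha, while Klf2, at 1277, 515 and 896, was highest in control. No test of a link between these genes was made.

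In the liver, Pdk4 held 289 UMIs in iSuRe-Cre cells (28.2 CPM) and 2 in control cells, a ratio of 11.8 with a lower bound of 3.24. Of 8 regulators tested there, 2 were at least 1.5-fold higher, Myc at 2.56 (1.28 to 6.01) and Kdr at 4.13 (3.50 to 4.90), and 3 lower, Epas1 at 0.608, Klf4 at 0.542 and the targeted Notch1 at 0.151. Of 9 hypoxia targets 4 were at least 1.5-fold higher and 1 lower. In this comparison of iSuRe-Cre with control liver, 12.1% of all features were that far higher and 12.1% lower. Of 9 other glycolysis genes tested, the lactate transporter gene Slc16a1 was higher at 1.66 (0.742 to 4.62), and Pfkp at 0.658 (0.412 to 1.11) and Slc2a3, a high-affinity glucose transporter, at 0.514 (0.323 to 0.858) were lower. Slc2a3 stood at 85.1 CPM in neutrophil-lineage-like cells, whose list was at 5605 CPM in iSuRe-Cre and 10171 in control liver, and the part of these cells in its ratio was not tested.

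Cells with cell-cycle transcripts held more Gapdh, Pgk1 and Pkm than cells without, in control and iSuRe groups of the heart and in both iSuRe groups of the liver. The 6 cell-cycle genes (Mki67, Top2a, Cdk1, Ccnb1, Cenpf and Birc5) summed to 435 CPM in control heart, 1063 for iSuRe-Cre and 903 for iSuRe-HadCre. Within iSuRe-Cre heart, cells with 3 or more UMIs of these genes (175 cells) had Pgk1 at 1.65 (1.45 to 1.89), Pkm at 1.48 (1.34 to 1.64) and Gapdh at 1.41 (1.33 to 1.49) times the level of the 143 cells with none. In iSuRe-HadCre heart, with 69 and 195 cells, Pkm was at 1.88 (1.58 to 2.24) and Gapdh at 1.78 (1.63 to 1.95).
Aldoa did not share this in the heart. It was at 0.808 (0.737 to 0.885) in iSuRe-Cre, 0.849 (0.726 to 0.993) in iSuRe-HadCre and 0.989 (0.840 to 1.16) in control heart. In iSuRe-Cre liver Gapdh was at 2.15 (2.05 to 2.25), Pgk1 at 1.74 (1.56 to 1.95) and Pkm at 1.30 (1.20 to 1.41). Hk2 was at 2.17 (1.54 to 3.09) there, while Hk1 was at 0.554 (0.440 to 0.695) and Pfkl at 0.628 (0.518 to 0.759). In iSuRe-HadCre liver, with only 24 and 39 cells, Gapdh was at 2.26 (1.88 to 2.71), Pgk1 at 2.36 (1.58 to 3.60) and Pkm at 1.91 (1.36 to 2.73). Depth and cycling cannot be told apart in these classes, since a deeper cell reaches 3 UMIs more easily. Among heart cells with no cell-cycle UMI, iSuRe-HadCre against iSuRe-Cre still gave 0.519 for Pkm, 0.605 for Gapdh, 0.633 for Pgk1 and 0.689 for Ldha, of which only Ldha was short of 1.5-fold.

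Shares of cells with a UMI of the sparse genes were set beside those of hepatocyte-like and erythroid-like cells. Slc2a1 was seen in 9.84% to 23.1% of cells of the 6 groups, Hk2 in 4.31% to 14.3% and Pfkfb3 in 8.20% to 22.4%. In 29 hepatocyte-like cells, which were deeper at a median of 33761 UMIs, the shares were 27.6%, 41.4% and 20.7%. After thinning every cell to 2000 UMIs the groups lay at 1.51% to 4.14% for Slc2a1, 0.908% to 4.30% for Hk2 and 2.66% to 4.49% for Pfkfb3, and the hepatocyte-like cells at 2.40%, 3.91% and 3.09%. In 42 erythroid-like cells the thinned shares were 2.00%, 4.39% and 0.303%. Sets of 29 and 42 cells allow only wide intervals. Neither set is a known floor, since the 10 genes together took 3077 CPM in hepatocyte-like and 3177 in erythroid-like cells. The shares of the groups lay around those of the hepatocyte-like cells, and no difference between groups was read from them.

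Across the gates of at least 50 cells, the 10 genes together were lowest in large-vessel-like and endocardial-like ECs and highest in chondrocyte-like and macrophage-like cells. Gates were sets of barcodes, with or without a hashtag, that carried the UMIs of exactly 1 of 18 marker lists, and 10 gates held at least 50 cells. Smaller gates were not ranked, among them skeletal muscle-like (42 cells, 4426 CPM) and smooth muscle-like cells (33 cells, 4243 CPM). In CPM, chondrocyte-like cells (79) summed to 3835, macrophage-like cells (91) to 3742, keratinocyte-like cells (185) to 3596, neutrophil-lineage-like cells (341) to 3480 and neural progenitor- or glia-like cells (289) to 3367. Capillary-like ECs (3514 cells) were at 2605, mesenchymal-like cells (1478) at 2453, neuron-like cells (180) at 2037, endocardial-like ECs (105) at 1837 and large-vessel-like ECs (76) at 1506. Between 64.5% and 97.8% of the cells in these gates carried no hashtag, so most could not be placed in a group. The labels name only heart and liver and a CD31+ sort, which should leave out keratinocytes, neurons and chondrocytes, so these gates are named by their markers alone and their levels are not those of a labelled tissue. With each cell weighted equally the macrophage-like gate was the highest.

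Each gene had its own order over the gates. Hk2 was highest in chondrocyte-like cells at 134 CPM (114 to 157), then in macrophage-like cells at 116 (98.4 to 135), with 12.1 in neuron-like cells, an 11.1-fold range. Slc2a1 was highest in keratinocyte-like cells at 125 (115 to 137) and in chondrocyte-like cells at 82.6 (66.7 to 101), and lay between 13.6 and 32.7 in the other 8 gates. Ldha in chondrocyte-like cells, at 946 (890 to 1004), stood clear of its next gate at 525 (488 to 564).
Hk1 was highest in the endothelial gates, at 44.8 CPM in large-vessel-like, 42.4 in capillary-like and 40.6 in endocardial-like ECs. It was at 31.6 in neuron-like cells and 6.90 in keratinocyte-like cells, though none of its 9 neighbouring pairs in the order could be separated by their intervals. Pfkfb3 was highest in macrophage-like cells at 51.4 (40.2 to 64.7) and lowest in neural progenitor- or glia-like cells at 5.76 (3.83 to 8.33).
The remaining genes ranged less. Gapdh ran from 589 CPM in large-vessel-like ECs to 1791 in neural progenitor- or glia-like cells, Pgk1 from 108 to 383 and Pkm from 190 to 475. Aldoa ran from 171 in neuron-like to 510 in macrophage-like cells, and Pfkl 3.00-fold, with the lowest level in large-vessel-like ECs and the highest in chondrocyte-like cells. Neighbours in the order had overlapping intervals in 4 of 9 pairs for Gapdh, 5 for Aldoa and Ldha, 6 for Pgk1 and Pkm, 7 for Slc2a1 and Hk2, and 8 for Pfkl and Pfkfb3.

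**Figure D4:**
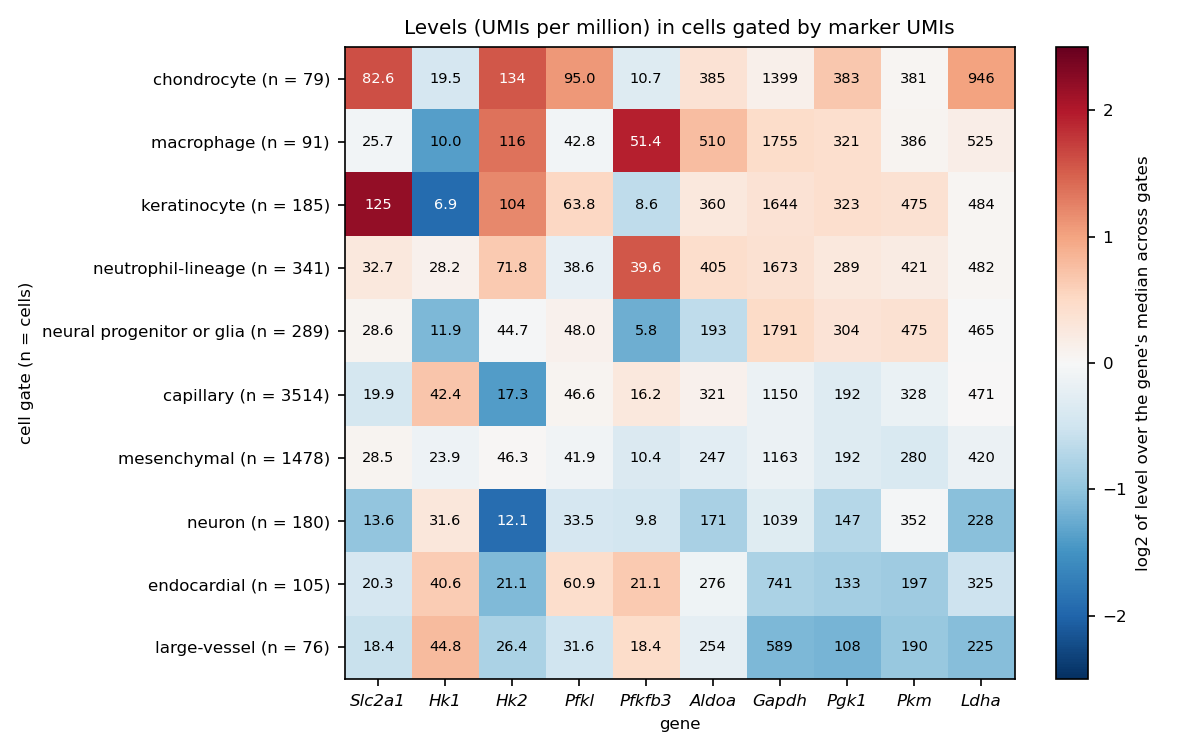
Level of each of the 10 genes (columns) in each of the 10 cell gates (rows, with their number of cells), coloured by the log2 of its level in CPM over its own median across gates. Hk2, Slc2a1 and Ldha are high in the chondrocyte-like row (134, 82.6 and 946 CPM), and Hk1 is high in the 3 endothelial rows (40.6 to 44.8).

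Over the 6 groups and 10 gates, which share 1 library and some cells, Pgk1 followed the sum of the 10 genes most closely, with a Pearson r of 0.98 on the log2 scale, then Gapdh at 0.96, Pkm at 0.90 and Ldha at 0.83. Hk2 was at 0.76, Slc2a1 at 0.70, Aldoa at 0.61, Pfkl at 0.46 and Pfkfb3 at 0.08, and Hk1 ran against it at -0.81. The sum contains each of the 10 genes and Gapdh is its largest part. Part of each r, most for Gapdh, was thus fixed in advance, and these values cannot be set against those of other genes. Among 9517 other genes the most alike were Eno1 at 0.93 and, at 0.91 each, Pgam1, Mrps14, Rpl36al and Rpsa. Eno1 and Pgam1 act in glycolysis, and the last 3 encode ribosomal proteins of the mitochondrion (Mrps14) and of the cytoplasm.

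Isozyme shares ranged more widely over the gates than over the groups. Hk1 gave 82.3% of hexokinase UMIs in control heart, 77.7% for iSuRe-Cre and 65.4% for iSuRe-HadCre, and Hk2 gave 14.9% (9.94 to 21.0), 21.9% (18.2 to 26.0) and 33.3% (27.5 to 39.6). The liver groups ran from 59.2% to 74.1% for Hk1, and in free RNA Hk2 gave 55.4% (41.5 to 68.7). Capillary-like ECs were at 69.9% Hk1, endocardial-like at 65.0%, large-vessel-like at 58.6% and neuron-like cells at 65.1%.
Hk2 took over in the other gates, with 92.9% in keratinocyte-like, 86.3% in chondrocyte-like, 77.5% in neural progenitor- or glia-like, 73.6% in macrophage-like, 64.8% in mesenchymal-like and 54.7% in neutrophil-lineage-like cells. Hk3, a hexokinase of myeloid cells, added 20.0% and 23.4% in macrophage-like and neutrophil-lineage-like cells. Within phosphofructokinase, Pfkl gave 72.4% (69.3 to 75.3) in iSuRe-Cre liver and 46.7% (40.7 to 52.8) in iSuRe-HadCre heart, where the platelet-type Pfkp gave 42.7%.
Ldhb gave 11.4% (9.75 to 13.2) of lactate dehydrogenase UMIs in control heart, 6.00% (5.34 to 6.72) for iSuRe-Cre and 19.3% (17.3 to 21.4) for iSuRe-HadCre. Free RNA was at 19.8% (16.5 to 23.6) Ldhb, which overlaps iSuRe-HadCre heart, and its Ldhb level of 111 CPM lay above all 6 groups. Ldhb gave 14.3%, 11.8% and 15.4% in the same groups of liver, 53.6% in neuron-like cells and 33.5% in neural progenitor- or glia-like cells. Pkm made up 98.9% to 100% of pyruvate kinase UMIs in the 6 groups. Aldoc gave 29.1% of aldolase UMIs in neural progenitor- or glia-like cells and at most 2.99% in every other gate.

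**Figure D5:**
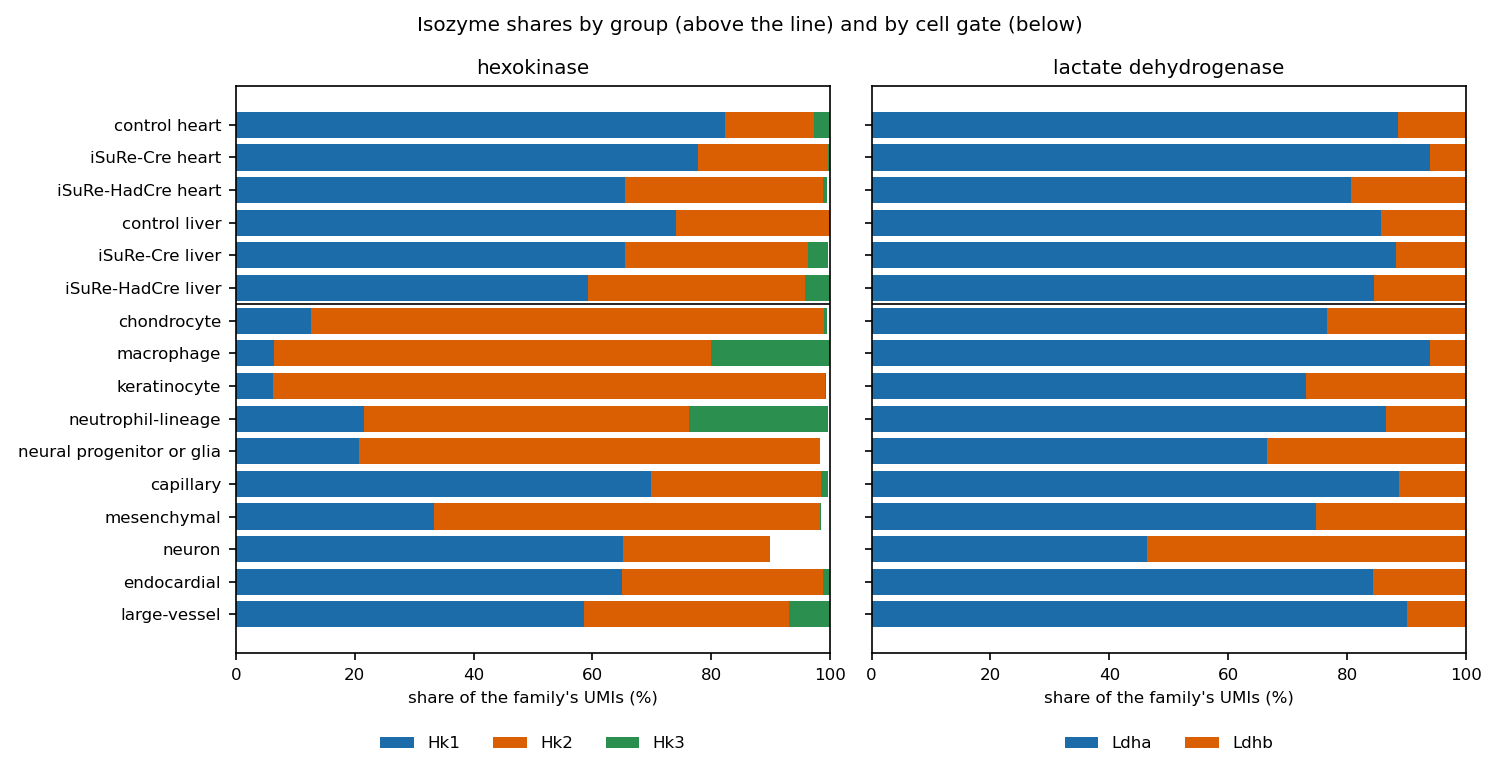
Share of each isozyme in the UMIs of its family (horizontal axis, percent) by group above the line and by cell gate below it, for Hk1, Hk2 and Hk3 of the hexokinases and for Ldha and Ldhb, with hexokinase bars short of the full width where the rest of the family held UMIs. Hk1 leads in the 6 groups, the 3 endothelial gates and the neuron-like gate (58.6% to 82.3%), and Hk2 leads in the other 6 gates.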

How the data were processed

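The authors deposited 1 Cell Ranger 7.1.0 matrix of raw counts (UMIs per gene and hashtag) for all 2755147 barcodes, mapped to GRCm38 with Ensembl 98 and transgene sequences added. No cell annotation was used here, and 7 hashtag or multiplexing features that the labels tie to no group were left out. Barcodes were kept with more than 2000 and fewer than 75000 UMIs, more than 500 genes, and mitochondrial and haemoglobin shares under 5%. A cell belonged to a group when its hashtag reached 25 UMIs (140 for the iSuRe-Cre liver tag) with the other 5 below their minimum, and when it had at least 1 Cdh5 UMI. Doublets were handled only by leaving out barcodes with more than 1 hashtag (186) or more than 1 gate (1490). No doublet caller was run.

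UMIs of a gene were added up over the cells of a group and set over all UMIs of that group (CPM), with exact Poisson 95% intervals for levels, exact conditional intervals for ratios and Clopper-Pearson intervals for shares. A gene was called past 1.5-fold among features with at least 100 UMIs in both groups together. With 1 pooled sample a group, no count model was fitted and no p-value is given. Total UMIs of the groups ranged from 838074 to 10253165, which sets the width of the intervals. Gates needed UMIs of at least 3 genes of 1 marker list, and at least 5 UMIs of it with Cdh5 and Pecam1 (ECs), or at least 10 and no Cdh5 (others). Hepatocyte-like cells also needed 5% of their UMIs from the list, cardiomyocyte-like cells 2%. Cells were thinned to 2000 UMIs for shares of cells.

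The genes and lists were chosen with earlier results of these data known. Named beside the 10 genes are list genes past 1.5-fold or defining an isozyme family, and the 5 genes most alike. The symbol Aldoa has a second identifier with 44 UMIs, which was not used. On simulated counts for iSuRe-Cre against control heart (9143 genes), 200 of 200 changed genes were called in the right direction, 95.7% of intervals held the truth, and 84 unchanged genes were called past 1.5-fold. These counts were drawn as independent molecules and the planted changes were far larger than 1.5-fold. The simulation therefore checks the code only. It cannot show how calls or intervals behave for changes near 1.5-fold or for UMIs clumped in few cells. Alternatives covered the hashtag, Cdh5, WPRE, depth, mitochondrial and haemoglobin limits, scaling, free RNA, cell weighting, cell cycle and gates. Python 3.11.15, numpy 2.4.6, scipy 1.17.1, pandas 2.3.3 and matplotlib 3.10.9 were used. Some members of the isozyme families are not reported here.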

Additional observations from a re-analysis of the deposited data

Results flagged for a closer look

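Barcodes that passed the quality limits with at least 1 Cdh5 UMI but no hashtag, 6103 in all, belong to no comparison. Slc2a1, Hk2, Gapdh and Pgk1 were flagged because their levels there were at least 1.5-fold above both control groups. The share of all features that far above was not counted, so nothing is read from their number. Slc2a1 was at 29.5 CPM, Hk2 at 33.8, Gapdh at 1341 and Pgk1 at 229, beside 36.8, 33.6, 1033 and 226 in free RNA. Hk1, at 32.6 CPM, lay below both control groups (47.4 in heart and 47.7 in liver), with 26.0 in free RNA. The part of free RNA in these levels was not tested. Gapdh and Pgk1 also lay on opposite sides of 1 for iSuRe-HadCre against control in the 2 organs. Gapdh was at 0.838 in heart and 1.21 in liver, and Pgk1 at 0.819 in heart and 1.39 in liver, and the difference between the organs was not tested. In the liver each stayed above 1 in 12 of 13 alternatives. Gapdh fell to 0.908 among cells with no cell-cycle UMI, and Pgk1 to 0.996 with the WPRE limit. In the few capillary-gated liver cells Gapdh was at 0.950 (0.778 to 1.16) and Pgk1 at 1.39 (0.840 to 2.29).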

How the results depend on the processing

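The number of the 10 genes past 1.5-fold moved by over 1.5 times in several alternatives. For iSuRe-HadCre against control heart (1 as reported) it was 2 with a hashtag minimum of 10 UMIs, with 10% free RNA subtracted and with no minimum of UMIs, and 0 with a hashtag minimum of 50, log-normalized Cdh5 above 0.9, cells under 20000 UMIs, cells with no cell-cycle UMI and the capillary gate. For iSuRe-HadCre against iSuRe-Cre heart (5) it was 3 with a hashtag minimum of 10 and a mitochondrial limit of 10%, and 2 with WPRE above 0.5. For iSuRe-Cre against control heart (1) it was 0 with WPRE, cells under 20000 UMIs and no cell-cycle UMI, 2 with a hashtag minimum of 50, median-of-ratios scaling and the capillary gate, 3 with free RNA subtracted and 4 with each cell weighted equally. For iSuRe-Cre against control liver (1) it was 0 at both hashtag minimums, 2 with WPRE, median-of-ratios scaling, a haemoglobin limit of 1% and no cell-cycle UMI, 3 with free RNA subtracted, 4 with Cdh5, 5 under 20000 UMIs and 7 with equal weights. For iSuRe-HadCre against control liver (0) it was 1 with a hashtag minimum of 50 and with equal weights, and 3 with no minimum of UMIs. For iSuRe-HadCre against iSuRe-Cre liver (0) it was 1 with a hashtag minimum of 50, equal weights and free RNA subtracted, 2 with Cdh5 and under 20000 UMIs, and 3 with WPRE and no cell-cycle UMI. For control liver against control heart (0) it was 1 with Cdh5 and with no minimum of UMIs. The alternative added after seeing the data, cells with fewer than 10 neutrophil-lineage UMIs, gave 4 for iSuRe-Cre against control liver and 1 for each other liver comparison with iSuRe-HadCre. Pfkfb3 in iSuRe-Cre against control liver turned to 0.950 under 20000 UMIs. The range of the summed genes over the gates was 2.55-fold, and 2.89-fold with equal weights. The cause was not tested in any of these. The WPRE limit, which the study also used to select Tomato+ ECs, kept 145 of 437 iSuRe-Cre heart cells. It kept 297 of 319 iSuRe-HadCre heart cells. In iSuRe-Cre heart WPRE stood at 63.0 CPM, below its 160 in free RNA.

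Of 938 ratios of single genes under alternatives, 829 moved by less than their interval, 108 moved further and 1 was counted as reversed. More ratios than that 1 fell on the other side of 1 in some alternative. Pfkl in control liver against control heart (0.998) kept its side in 5 of 13, and Hk1 in iSuRe-HadCre against control liver (1.02) in 8 of 13. In iSuRe-HadCre against iSuRe-Cre heart, Pkm and Pgk1 stayed at least 1.5-fold lower in all 14 alternatives, Gapdh in 11 and Ldha in 10, and Hk2 at least 1.5-fold higher in 11. The 18 shares of cells all moved on thinning. The sinusoidal gate gave no liver value, with 0, 26 and 2 cells in control, iSuRe-Cre and iSuRe-HadCre liver. No paired analysis was possible because the result comes from no test and each group is 1 sample. Depth limits Slc2a1, Hk2 and Pfkfb3 most, with 10 to 26 UMIs in several groups.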
